A study of Homo sapiens with 6 samples.

Results

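Ferritin and 8 further genes of iron handling were examined in TPC-1-Len, human papillary thyroid carcinoma cells (TPC-1) that had acquired resistance to lenvatinib, an inhibitor of several receptor tyrosine kinases. The genes were given by name as FTH1, FTL, TFRC, SLC40A1, SLC11A2, HMOX1, NCOA4, IREB2, ACO1 and STEAP3, and all 10 were found among the 22681 genes of the count table. All 10 also passed the filter on low counts. RNA sequencing covered 3 libraries of cells transfected with a non-targeting hairpin (shNC) and 3 of cells transfected with a hairpin against the keratin gene KRT15 (shKRT15). Whether the replicates were transfected separately is not stated. Both groups were kept in 10 µM lenvatinib, and sensitive or untreated cultures were not analysed here, so the hairpins are compared within resistant cells only. The sources used here give neither the hairpin sequences nor the time from transfection to harvest. KRT15 itself stood at 28.7, 31.9 and 36.2 CPM (the usual unit of reads relative to library size, here after TMM scaling) in shNC and at 25.0, 24.3 and 24.9 CPM in shKRT15. It fell by 23.4% (95% confidence interval 11.3 to 33.9%, edgeR adjusted p = 0.00465), so most of its mRNA remained.

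Cells take up iron bound to transferrin through the transferrin receptor (TFRC), reduce it in the endosome with STEAP3 and pass it to the cytosol through the transporter SLC11A2 (DMT1). Iron not needed at once is stored in ferritin, a hollow shell of heavy (FTH1) and light (FTL) chains, and NCOA4 carries ferritin to the lysosome when the iron is called back. SLC40A1 (ferroportin) exports iron, and HMOX1 (heme oxygenase 1) frees it from heme. The iron regulatory proteins IRP1 (ACO1) and IRP2 (IREB2) bind hairpins called iron-responsive elements in target mRNAs when iron is low. Bound near the start of an mRNA they block its translation, as in ferritin, and bound near its end they protect it from decay, as in TFRC. An mRNA count can register the second kind of control and not the first.

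The element sequences are shown because they separate the transcripts with a match ahead of the coding sequence from those with one behind it. Each transcript was searched on its own strand for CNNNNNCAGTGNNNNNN, a bulged C, 5 stem bases, a loop of 6 bases whose last base is not G, and the 5 bases that close the stem, with G-U pairs allowed. All 5 stem pairs were met in 4 of the 10 transcripts, against 0.87% of 20355 protein-coding transcripts. Transcripts differ in length, so a long one has more places to match, and a match is a description of the letters, not proof of binding. The matches are printed 5′ to 3′ as DNA letters from GENCODE release 29 transcripts (GRCh38), 29 bases each, with the loop in capitals.
FTH1, 5′ UTR in exon 1 of 4, minus strand, chr11:61967574-61967602: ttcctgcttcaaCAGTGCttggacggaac
FTL, 5′ UTR in exon 1 of 4, plus strand, chr19:48965335-48965363: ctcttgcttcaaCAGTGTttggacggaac
SLC40A1, 5′ UTR in exon 1 of 8, minus strand, chr2:189580661-189580689: caacttcagctaCAGTGTtagctaagttt
TFRC, 3′ UTR in exon 19 of 19, minus strand, match 1, chr3:196050979-196051007: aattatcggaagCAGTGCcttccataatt
TFRC, match 2, chr3:196050575-196050603: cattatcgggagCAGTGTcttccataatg
TFRC, match 3, chr3:196050510-196050538: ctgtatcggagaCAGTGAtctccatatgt
TFRC, match 4, chr3:196050463-196050491: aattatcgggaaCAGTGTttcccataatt
SLC11A2, 3′ UTR in exon 16 of 16, minus strand, 4 of 5 pairs, chr12:50988269-50988297: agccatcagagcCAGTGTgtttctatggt

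The ferritin and ferroportin elements lie ahead of the coding sequence, and those of TFRC and SLC11A2 lie behind it. With 4 of 5 pairs allowed, 6.7% of protein-coding transcripts matched. The 3′ UTRs of IREB2 and ACO1 then held a match as well as that of SLC11A2, giving 7 of the 10, with no match in HMOX1, NCOA4 or STEAP3. SLC11A2 also has transcripts that end without this element, and the counts, made per gene, do not separate them.

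Libraries held 36286059 to 36808695 reads in shNC and 39868231 to 41343780 in shKRT15. Over all 14356 genes tested, 22.1% were called higher and 23.0% lower (edgeR adjusted p under 0.05), the background for the marker counts that follow. All 8 proliferation markers rose, with MCM2 (1.63 ± 0.09, SE), MKI67 (1.54 ± 0.09), BIRC5 (1.45 ± 0.08) and RRM2 (1.40 ± 0.08) first, and their summed level went from between 703 and 756 CPM to between 1606 and 1703 CPM (summed levels are without TMM scaling). Dividing cells are known to need TFRC. Macrophages are rich in ferritin and HMOX1. Of 8 macrophage and leukocyte markers 3 were tested and fell, CD68 from 87.9 to 59.6 CPM and CSF1R and LYZ at under 4 CPM. PTPRC had 43 reads in shNC and 0 in shKRT15, CD14 had 19 and 20 and CD163 had 1 and 6. Of 5 fibroblast markers 3 were tested: LUM (from 9.004 to 1.32 CPM) and COL1A1 (from 10.2 to 3.57 CPM) fell and PDGFRB rose (from 1.47 to 3.06 CPM), while COL1A2 had 13 reads in shNC and 0 in shKRT15. Of 6 hepatocyte markers only SERPINA1 was tested and it fell from 577 to 391 CPM, while ALB had 8 and 16 reads. The part of these markers in the values of ferritin and HMOX1 was not tested. Erythroid markers summed to at most 0.329 CPM in any library. Among thyroid markers PAX8 stood at 372 to 433 CPM and did not pass, while NKX2-1 and TSHR had 1 read each over the 6 libraries. Of 6 epithelial markers 3 were tested. KRT18 rose from 116 to 215 CPM (0.89 ± 0.07), and KRT8 and KRT7 did not pass. EPCAM (8 reads in all) and CDH1 (5 reads in all) were near 0. The labels name TPC-1 cells in every library and no other cell type. In bulk RNA, fewer cells expressing a marker and less of its RNA per cell cannot be told apart.

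Within shNC, replicate 3 lay at an end of its group in some of these genes. It had the highest CPM of FTH1 and FTL and the lowest of TFRC, NCOA4, IREB2, SLC40A1 and ACO1 in its group. For ACO1 the shNC libraries were close together (104, 104 and 102 CPM). In SLC11A2, HMOX1 and STEAP3 it lay between the other shNC libraries. Each of the 6 calls held without shNC replicate 3, with log2 fold changes that stayed on the same side of 0.

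Levels differed widely between the 10 genes. For comparisons between genes, levels are given as CPM per kilobase of 1 GENCODE transcript. In shNC the ferritin chains led with 6691 ± 469 (SD, n = 3) CPM per kilobase for FTH1 and 5570 ± 295 for FTL. NCOA4 followed at 200 ± 12.04, then HMOX1 at 62.4 ± 1.22, TFRC at 57.9 ± 5.32 and SLC11A2 at 37.9 ± 0.558. ACO1 (13.8 ± 0.138), STEAP3 (13.5 ± 0.896) and IREB2 (7.85 ± 1.44) were lower, and SLC40A1 was lowest at 0.530 ± 0.232 CPM per kilobase. The neighbours HMOX1 and TFRC overlapped between libraries, and so did ACO1 and STEAP3, so their order is not set by these data.

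**Figure D1:**
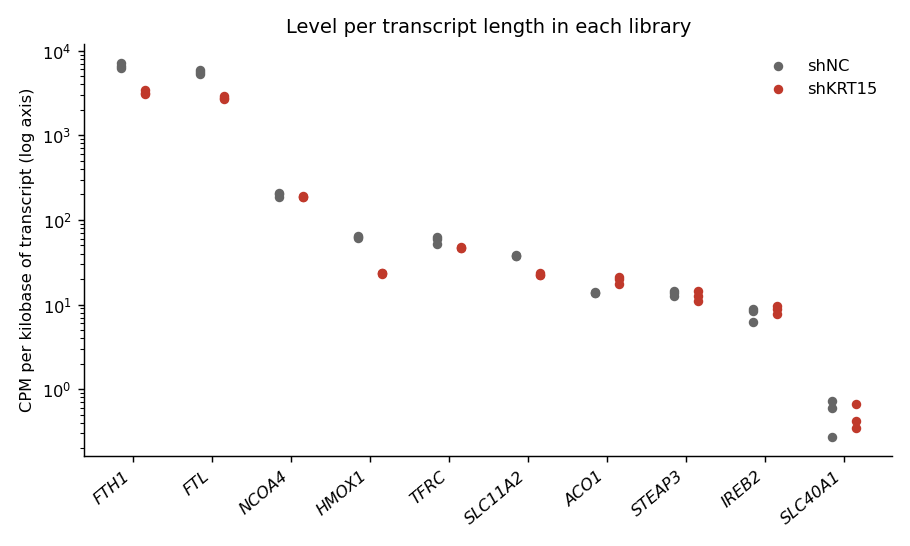
Level of each gene in CPM per kilobase of transcript (log axis), ordered by the shNC mean, with 1 point per library (grey shNC, red shKRT15, n = 3 each). FTH1 and FTL lie highest in every library and SLC40A1 lies lowest, and HMOX1 drops from 62.4 to 23.6.

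In shKRT15 the order of means changed only for TFRC and HMOX1, whose libraries overlapped in shNC. NCOA4 stood at 188 ± 2.86 CPM per kilobase. TFRC stood next at 47.1 ± 1.03, above HMOX1 at 23.6 ± 0.314 and SLC11A2 at 22.9 ± 0.805, whose libraries overlapped. ACO1 came next at 19.6 ± 2.01 CPM per kilobase, above STEAP3 at 12.7 ± 1.71, IREB2 at 8.70 ± 0.904 and SLC40A1 at 0.477 ± 0.164.

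Of the 10 genes, 5 fell in shKRT15 (HMOX1, FTH1, FTL, SLC11A2 and TFRC), 1 rose (ACO1) and 4 did not pass the test (NCOA4, STEAP3, IREB2 and SLC40A1). The test was the quasi-likelihood test of edgeR over 14356 genes, with a call at a Benjamini-Hochberg adjusted p under 0.05. Of all genes tested, 45.0% were called, 23.0% lower and 22.1% higher, so the 6 calls among 10 genes are to be read against a wide background. With total-count scaling, which left all 6 calls in place, 58.0% of all calls were higher in place of 49.0%. The groups did not overlap in 6 of the 10 genes and in 54.0% of all genes (27.1% lower and 26.9% higher). A called fall of at least 2-fold was seen in 3 of the 10, HMOX1, FTH1 and FTL, and in 4.99% of all genes. FTH1 and FTL lay close to that cut. With total-count scaling their log2 fold changes were −0.994 and −0.949, short of 2-fold. Without shNC replicate 3 they were −0.998 and −0.969, and FTL alone also fell short under some other alternatives. The median log2 fold change was −0.22 over the 10 genes and −0.0013 over all genes tested. With 3 libraries against 3, a two-sided exact permutation test of 1 gene cannot go below p = 0.1, and each of the 6 called genes reached that value.

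**Figure D2:**
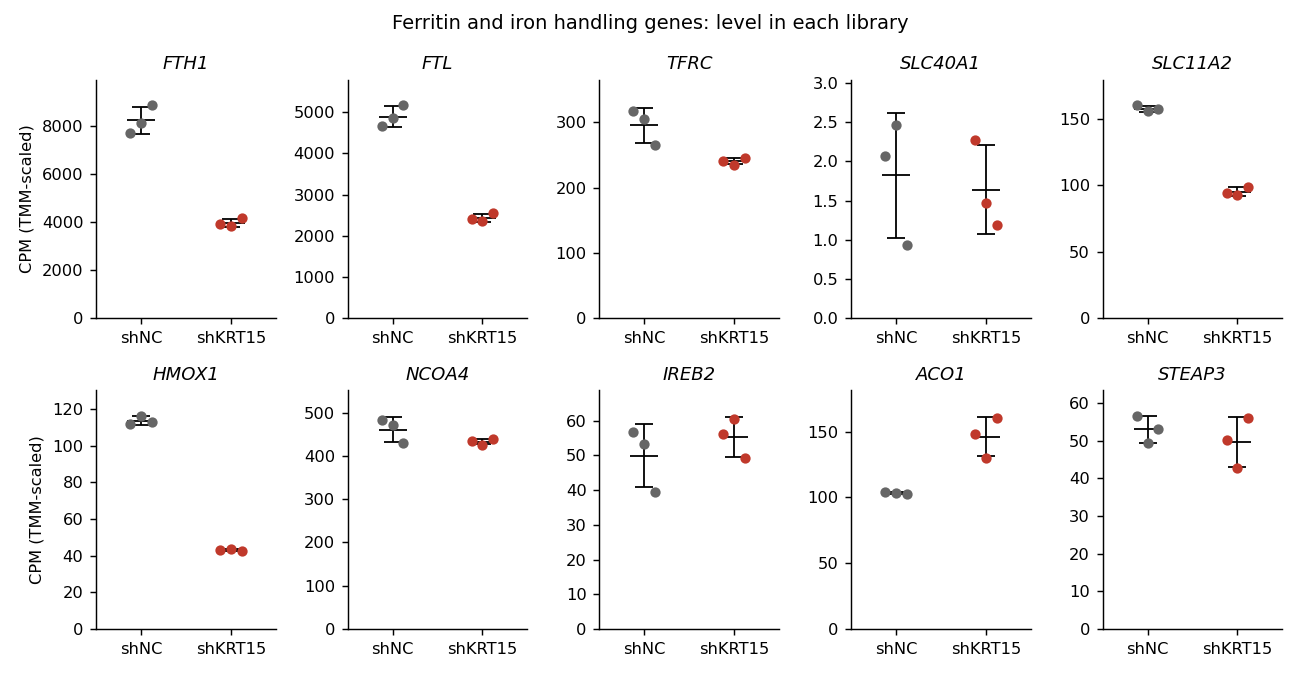
CPM of each gene in each library (axes start at 0 and differ between panels), with the mean as a short horizontal line and the SD as error bars (n = 3 libraries per group). HMOX1, FTH1, FTL, SLC11A2 and TFRC were lower in all shKRT15 libraries than in any shNC library, ACO1 was higher in all of them, and the other 4 genes overlapped.

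**Figure D3:**
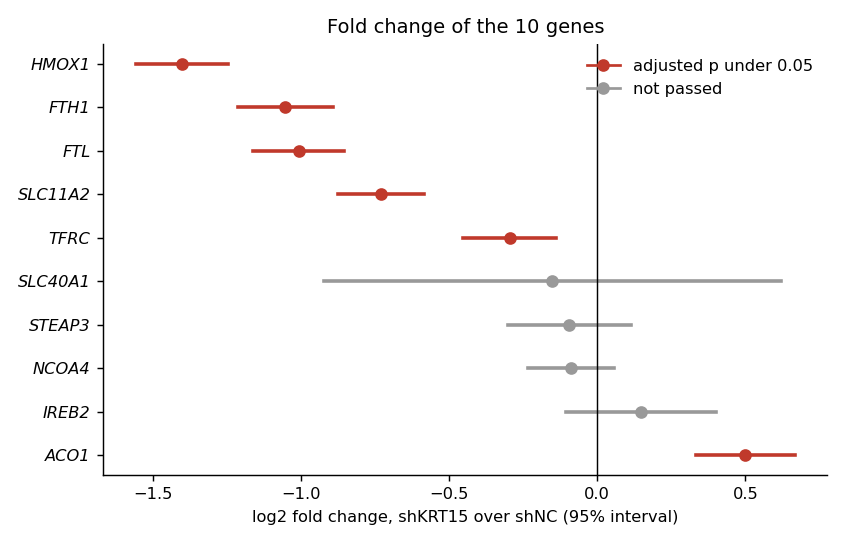
Log2 fold change of shKRT15 over shNC for each gene with its 95% confidence interval, red where the adjusted p was under 0.05 and grey where it was not. HMOX1 lies at −1.40, both ferritin chains lie near −1, and the interval of SLC40A1 runs from −0.92 to 0.62.

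Both ferritin chains fell to about the same extent. FTH1, the chain that oxidises iron on entry (gene ID 2495, chromosome 11, 61959718 to 61967660, minus strand, GRCh38), had 279574, 288542 and 313731 reads in shNC and 159941, 164260 and 168151 in shKRT15. On the CPM scale these were 7720, 8099 and 8853 against 3906, 3826 and 4158. Every shKRT15 library lay well below every shNC library, and shNC replicate 3 was the highest of the 6. FTH1 fell by 51.8% (95% confidence interval 46.1 to 56.9%), a log2 fold change of −1.05 ± 0.08 (SE, edgeR adjusted p = 6.69e-09). It was the gene of rank 6 by mean CPM in shNC and of rank 11 in shKRT15.

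FTL, the chain that helps to form the mineral core (gene ID 2512, chromosome 19, 48965301 to 48966878, plus strand), stood at 4651, 4856 and 5165 CPM in shNC and at 2403, 2350 and 2541 CPM in shKRT15. The groups were again apart, and the libraries held the same order within each group as for FTH1. FTL fell by 50.3% (95% confidence interval 44.7 to 55.3%), a log2 fold change of −1.01 ± 0.07 (SE, edgeR adjusted p = 6.34e-09), and moved from rank 11 to rank 25 by mean CPM.

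Together the ferritin chains took 1.22, 1.27 and 1.37% of all reads in shNC and 0.648, 0.641 and 0.667% in shKRT15. The 8 other genes together took 0.121 ± 0.00699% (SD, n = 3) and 0.109 ± 0.00126%. The FTH1 to FTL read ratio within a library, which does not depend on scaling, was 1.68 ± 0.0292 in shNC and 1.63 ± 0.00602 in shKRT15. The difference on the log2 scale was −0.04, with no overlap between groups (two-sided exact permutation p = 0.1, the smallest possible). The ratio was lower in every shKRT15 library than in any shNC library, by a small amount. After correction for GC content and transcript length, the log2 fold changes were −1.04 for FTH1 and −1.07 for FTL. Which chain fell more therefore depended on the processing.

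Ferritin has many near-identical processed copies in the genome. GENCODE release 29 names 25 pseudogenes of FTH1, 16 of FTL and 3 of NCOA4, which were not analysed here, and how the authors' counting treated reads shared with them is not given in the sources used here. BEST1, whose gene model overlaps FTH1, held 5230 reads in shNC and 3089 in shKRT15, numbers equal in size to 0.593% and 0.627% of the FTH1 reads, which were counted separately. Without a known strand setting, reads of these genes cannot be told apart where the models overlap.

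Among 9335 genes whose mean reached 10 CPM, the one whose mean-centred log2 CPM over the 6 libraries lay closest to FTH1 was FTL, with a root mean square difference of 0.0265. TIMP1 (0.0295, from 838 to 391 CPM) and SQSTM1 (0.0348, from 1693 to 798 CPM) came next.

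NCOA4, the cargo receptor that hands ferritin to the autophagosome, is also known as a fusion partner of RET in some papillary thyroid carcinomas (gene ID 8031, chromosome 10, 46005088 to 46030714, minus strand). It stood at 483, 470 and 430 CPM in shNC and at 434, 426 and 439 CPM in shKRT15. The shKRT15 libraries sat at the low end of the shNC range. The log2 fold change of −0.09 ± 0.07 (SE) did not pass the test (edgeR adjusted p = 0.311), with a 95% interval of −0.23 to 0.06, which does not reach the fall of either ferritin chain. It moved to −0.14 without shNC replicate 3 (edgeR adjusted p = 0.0656), to −0.05 without shNC replicate 1 and to −0.03 with total-count scaling, and passed in none of them.

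Among the genes of iron entry, SLC11A2 and TFRC fell and STEAP3 did not pass the test. SLC11A2, the proton-coupled carrier of ferrous iron out of the endosome (gene ID 4891, chromosome 12, 50979401 to 51028566, minus strand), had 160, 156 and 157 CPM in shNC and 94.1, 92.5 and 98.9 CPM in shKRT15. Spread within each group was small, and the groups were far apart. SLC11A2 fell by 39.7% (95% confidence interval 33.3 to 45.5%), with a log2 fold change of −0.73 ± 0.07 (SE, edgeR adjusted p = 1.7e-07).

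TFRC, the receptor for transferrin-bound iron (gene ID 7037, chromosome 3, 196027183 to 196082189, minus strand), had 317, 305 and 265 CPM in shNC and 241, 236 and 246 CPM in shKRT15. The groups did not overlap, but shNC replicate 3 lay closer to the shKRT15 libraries than to shNC replicate 1. TFRC fell by 18.5% (95% confidence interval 9.12 to 27.0%), with a log2 fold change of −0.30 ± 0.07 (SE, edgeR adjusted p = 0.00377). A larger absolute fold change was seen in 52.1% of all genes tested, so its fall was of ordinary size in these data. Proliferation markers, given above, moved the other way, and their part in the TFRC value was not tested.

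The TFRC to FTH1 read ratio was higher in every shKRT15 library. Within libraries there were 0.0362 ± 0.00569 (SD, n = 3) TFRC reads per FTH1 read in shNC and 0.0608 ± 0.00142 in shKRT15. The log2 ratio was −4.61, −4.73 and −5.06 in shNC and −4.02, −4.02 and −4.08 in shKRT15, a difference of 0.76 (two-sided exact permutation p = 0.1, the smallest possible). That ratio varied more among the shNC libraries than among the shKRT15 libraries, with shNC replicate 3 lowest. The genes with the pattern closest to TFRC were JAK1, PPP2R1B and DAB2, with root mean square differences of 0.0186, 0.0205 and 0.0213 on the log2 scale.

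STEAP3, the ferrireductase of the transferrin cycle (gene ID 55240, chromosome 2, 119223831 to 119265652, plus strand), ranged from 49.4 to 56.4 CPM in shNC and from 42.7 to 56.1 CPM in shKRT15. The groups overlapped almost fully, and the log2 fold change was −0.09 ± 0.10 (SE, edgeR adjusted p = 0.469, 95% interval −0.30 to 0.11). After correction for GC content and transcript length, STEAP3 passed the test (−0.27, edgeR adjusted p = 0.00579). Without shKRT15 replicate 2 its log2 fold change was 0.0087. Its antisense neighbour STEAP3-AS1 had 7 reads in shNC and 5 in shKRT15.

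SLC40A1, the ferroportin gene and the one known route of cellular iron export (gene ID 30061, chromosome 2, 189560579 to 189583758, minus strand), was barely expressed. It had 75, 88 and 33 reads in shNC and 93, 63 and 48 in shKRT15. The libraries of both groups ran through each other. The log2 fold change was −0.15 ± 0.37 (SE, edgeR adjusted p = 0.766), and its 95% interval ran from −0.92 to 0.62, so neither a fall nor a rise of moderate size was detectable in these libraries. Its sign turned without shNC replicate 2 (0.13) or shKRT15 replicate 3 (0.04).

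HMOX1, which degrades heme to biliverdin, carbon monoxide and iron (gene ID 3162, chromosome 22, 35380361 to 35394214, plus strand), showed the largest fall of the 10. It had 112, 116 and 113 CPM in shNC and 43.2, 43.5 and 42.4 CPM in shKRT15. Libraries within a group were almost level, and the groups differed by far more than their spread. HMOX1 fell by 62.2% (95% confidence interval 57.9 to 66.0%), a log2 fold change of −1.40 ± 0.07 (SE, edgeR adjusted p = 1.18e-10). A larger absolute fold change was seen in 5.62% of all genes tested. The summed macrophage and leukocyte markers also went down, from between 88.7 and 92.0 CPM to between 55.6 and 70.5 CPM, almost all of it CD68, and their part in the values of HMOX1 and ferritin was not tested.

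Of the iron regulatory proteins, ACO1 rose and IREB2 did not pass the test. ACO1, a cytosolic aconitase that becomes IRP1 when it lacks its iron-sulfur cluster (gene ID 48, chromosome 9, 32384603 to 32454769, plus strand), had 104, 104 and 102 CPM in shNC and 148, 130 and 160 CPM in shKRT15. All shKRT15 libraries were higher than any shNC library, and they spread more widely than the shNC libraries. ACO1 rose by 41.3% (95% confidence interval 25.9 to 58.7%), a log2 fold change of 0.50 ± 0.08 (SE, edgeR adjusted p = 6.48e-05). It was the only one of the 10 genes called higher.

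IREB2, which encodes IRP2, a protein removed by the ubiquitin ligase FBXL5 when iron is plentiful (gene ID 3658, chromosome 15, 78437431 to 78501456, plus strand), had 56.8, 53.3 and 39.5 CPM in shNC and 56.0, 60.6 and 49.2 CPM in shKRT15. The groups overlapped, with shNC replicate 3 the lowest library. The log2 fold change was 0.15 ± 0.12 (SE, edgeR adjusted p = 0.337, 95% interval −0.11 to 0.40). It moved to 0.0039 without shNC replicate 3 and passed the test after the GC and length correction (0.34, edgeR adjusted p = 0.000902). FBXL5, chosen after its values were seen, stood at 110 ± 3.46 CPM (SD, n = 3) in shNC and 105 ± 4.43 CPM in shKRT15 and did not pass (edgeR adjusted p = 0.502). Its sign turned after that correction (from −0.06 to 0.09).

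Other iron genes were read from lists of the pathway, given as counts beside the 45.0% called over all genes. Among 16 tested of 22 further genes of iron uptake and release from endosomes, 3 rose, 3 fell and 10 did not pass, with a median log2 fold change of −0.15. PICALM, a clathrin adaptor (−0.43 ± 0.07, SE), and SLC39A14, a carrier of iron not bound to transferrin (−0.40 ± 0.07, from 379 to 287 CPM), fell. The heme carriers SLC46A1 (0.67 ± 0.13) and SLC48A1 (0.55 ± 0.11) rose. The count of falls was 6 without shNC replicate 3 and 5 without shKRT15 replicate 3, and the count of rises was 5 with total-count scaling.

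Of 9 tested storage and chaperone genes, 4 rose, 3 fell and 2 did not pass, with a median of 0.10. PCBP2, which delivers iron to ferritin, rose by 0.37 ± 0.07 (SE) on the log2 scale. ATG5 (−0.65 ± 0.09), of the autophagy machinery, TAX1BP1 (−0.62 ± 0.10), an autophagy receptor, and GLRX3 (−0.40 ± 0.07), a cytosolic glutaredoxin, fell. Without shNC replicate 2, shKRT15 replicate 1 or shKRT15 replicate 3 only 1 rise was called.

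Genes of iron export and of the hepcidin axis were called in both directions, with 2 of 10 tested higher, 3 lower and a median of −0.02. Of the 14 listed, HAMP (hepcidin itself), HEPH and HJV were not found among the counted genes, and TMPRSS6 did not pass the filter. BMP6, known as the signal that raises hepcidin in liver, went from 41.1, 40.8 and 39.9 CPM in shNC to 12.04, 11.2 and 10.1 CPM in shKRT15, a log2 fold change of −1.87 ± 0.10 (SE, edgeR adjusted p = 1.61e-10). The levels were tight within each group. FLVCR2 fell by 1.30 ± 0.20 on the log2 scale at a low level (from 13.6 to 5.53 CPM). ERFE, a hormone that binds BMPs, rose from 7.01 to 14.4 CPM (1.04 ± 0.13), and HFE, a partner of TFRC, rose by 0.38 ± 0.10.

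Of 11 tested genes that control the iron regulatory proteins or carry other reported elements, 2 rose and 9 did not pass. CIAO2A, which helps to mature IRP1, rose by 0.35 ± 0.08 (SE) on the log2 scale. PFN2 was called at 0.17 ± 0.07 (edgeR adjusted p = 0.0438), a call lost without shNC replicate 1 or 2, without shKRT15 replicate 1, 2 or 3 (edgeR adjusted p = 0.0633 to 0.176) and with no filter on low counts (0.0641).

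Of 12 tested genes of heme synthesis and breakdown, 5 rose, 1 fell and 6 did not pass, at a median log2 fold change of 0.20. ALAS1, the enzyme of the first and rate-limiting step of heme synthesis, was the exception and fell from 101 to 69.9 CPM (−0.52 ± 0.07, SE). ALAD (0.60 ± 0.09) and FECH (0.52 ± 0.09), which act after it, rose. The count of rises was 3 without shNC replicate 2 or shKRT15 replicate 3 and 8 without shNC replicate 3.

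Among 22 genes of mitochondrial iron and iron-sulfur clusters, 3 rose, 6 fell and 13 did not pass. SLC25A37 (mitoferrin 1), which brings iron into mitochondria, had 320, 335 and 344 CPM in shNC and 152, 157 and 147 CPM in shKRT15. Its fall of 1.13 ± 0.07 on the log2 scale (SE, edgeR adjusted p = 7e-10) was close in size to that of ferritin, and the groups were far apart. FDXR (0.71 ± 0.11) and ABCB10 (0.31 ± 0.08) rose. CISD1 fell by 0.38 ± 0.09 on the log2 scale, a call lost after the GC and length correction (−0.0255, edgeR adjusted p = 0.81).

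In the cytosolic iron-sulfur assembly pathway, which can also load the cluster of ACO1, 5 of 9 genes rose, 1 fell and 3 did not pass, at a median log2 fold change of 0.30. NDOR1 (0.48 ± 0.13, SE), NUBP2 (0.47 ± 0.10), CIAO1 (0.39 ± 0.09) and CIAO2A rose. CIAO2B fell by 0.32 ± 0.09 on the log2 scale, a call lost without shKRT15 replicate 1 (edgeR adjusted p = 0.0824).

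**Figure D4:**
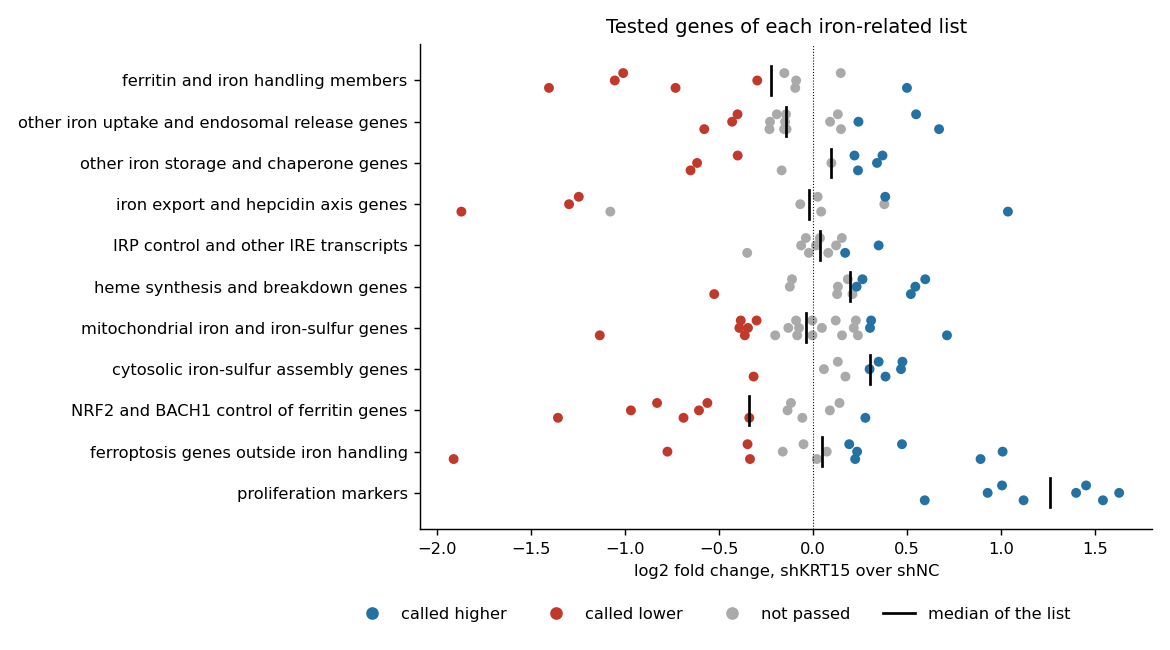
Log2 fold change of each tested gene in 11 lists, with blue points called higher, red points called lower, grey points not passed and a black bar at the list median. Heme and cytosolic iron-sulfur genes lie mostly above 0, the NRF2 and BACH1 list lies mostly below it, and the proliferation markers lie at 0.59 to 1.63.

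FTH1, FTL and HMOX1 are known targets of the activator NRF2 (NFE2L2) and the heme-sensing repressor BACH1, which pair with small MAF proteins on the same DNA element. Of 13 genes of that list, 7 fell, 1 rose and 5 did not pass, at a median log2 fold change of −0.34. MAFF (−1.35 ± 0.12, SE), BACH1 (−0.97 ± 0.11, from 52.9 to 27.1 CPM), MAFG (−0.83 ± 0.07) and NFE2L2 (−0.61 ± 0.07, from 138 to 90.9 CPM) fell. KEAP1, which marks NRF2 for removal, rose by 0.28 ± 0.08 on the log2 scale, a call lost after the GC and length correction (edgeR adjusted p = 0.0624). The NRF2 target NQO1, chosen after its values were seen, stood at 380 ± 14.9 CPM (SD, n = 3) in shNC and 404 ± 13.2 CPM in shKRT15 and did not pass (edgeR adjusted p = 0.298, 95% interval −0.05 to 0.23).

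Genes of ferroptosis, a form of cell death driven by iron and lipid peroxides, were called in both directions, 6 of 14 tested higher and 4 lower, with a median log2 fold change of 0.05. SAT1, a polyamine acetylase, fell from 560, 578 and 717 CPM in shNC to 160, 174 and 160 CPM in shKRT15 (−1.91 ± 0.09, SE), and GCH1, which makes tetrahydrobiopterin, fell by 0.77 ± 0.11 on the log2 scale. DHODH, a mitochondrial enzyme of pyrimidine synthesis, rose from 3.07 to 5.70 CPM (0.89 ± 0.18). The count of rises was 2 without shNC replicate 1 or shKRT15 replicate 1 and 3 without shNC replicate 2.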

How the data were processed

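The data are deposited raw read counts per gene for 6 libraries, whole numbers with no normalization. Reads were placed on GRCh38, per the submitters' processing notes, while the sources used here do not give the aligner, the counter, its annotation or how strand was handled. RNA came by TRIzol, and mRNA was purified, per the labels' protocols. Libraries were grouped by their titles. Counts were fitted on the whole table with edgeR 4.0.16 in R 4.3.3 (quasi-likelihood, robust, TMM, filterByExpr with minimum count 10 and minimum total 15, group as the only term), and p-values were adjusted by Benjamini-Hochberg over 14356 genes. The SE is the log2 fold change divided by the root of F. Libraries of 1 group differed by more than sampling noise (chi-square per degree of freedom 6.24 to 31.1), so all 6 were kept. The labels do not say whether the cultures were transfected separately, so a p-value covers only the variation among these 6 libraries, which may be technical. On simulated counts for this comparison (14206 genes), 86% of 100 genes changed by 0.5 on the log2 scale and 100% of 100 changed by 1 were recovered, with 8 false calls. The simulation gave every gene the same dispersion and changed only well-counted genes. Its recovery therefore does not cover genes that vary more or have few reads, such as SLC40A1. Transcript length and GC content came from GENCODE release 29 and covered 95.2% of tested genes. DESeq2 1.42.0 and limma-voom (limma 3.58.1) were alternatives. The members and lists were chosen with earlier results of these data known. The text names all 10 members, KRT15, up to 4 called genes of each list with the smallest p-values and a mean of at least 1 CPM, the exception of a list, and the 3 nearest patterns to FTH1 and TFRC. Some named genes are not reported here.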

Additional observations from a re-analysis of the deposited data

How the results depend on the processing

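The 6 called members kept their direction and their call under all 16 alternatives (size factors, upper-quartile or total-count scaling, DESeq2, limma-voom, no filter, a minimum of 1 CPM in 3 libraries, a replicate block, setting the scale without the 50 most abundant genes and dropping them except FTH1 and FTL, which were kept as rows, a correction for GC content and transcript length, and leaving out each library). Their log2 fold changes ranged from −1.09 to −0.99 for FTH1, −1.07 to −0.95 for FTL, −1.49 to −1.34 for HMOX1, −0.76 to −0.67 for SLC11A2, −0.37 to −0.20 for TFRC and 0.43 to 0.58 for ACO1. The GC and length correction brought calls for IREB2 (0.34) and STEAP3 (−0.27) and turned FBXL5 (0.0855), and the cause was not tested. Leaving out 1 library moved SLC40A1 between −0.47 and 0.13 and STEAP3 between −0.19 and 0.0087. With total-count scaling the counts of rises became 5 in iron uptake, 5 in mitochondrial iron and 2 in the NRF2 and BACH1 list. Leaving out 1 library gave 3 to 6 falls in iron uptake, 1 to 3 rises in storage, 1 to 2 rises and 0 to 1 falls in the IRP list, 3 to 8 rises in heme genes, 0 to 1 falls in cytosolic iron-sulfur genes, 1 to 2 rises in the NRF2 and BACH1 list and 2 to 6 rises in ferroptosis genes. With the replicate number as a block, 6733 genes were called in place of 6464 and no call of the 10 members changed. By their labels, same-numbered libraries shared only a number. Correlations of their deviations were 0.0579, −0.0023 and 0.0959, against at most 0.0470, 0.0470 and −0.0280 with another number. Numbers 1 and 3 thus correlated best with their own number, weakly, and number 2 did not. Adding pseudogene reads to FTH1 and FTL was not run, as those copies were not analysed here. SLC40A1 had only 33 to 93 reads per library and varied between them. The SD of its log2 CPM was 0.75 in shNC and 0.48 in shKRT15. The part of depth in its wide interval was not tested.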
